A study of Mus musculus with 8 samples.

Results

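The transcription factors that specify and equip the secretory cells of the intestinal crypt were followed across 8 libraries of sorted Paneth cells (PCs). The set held 10 genes of the 55414 in the deposited count table, chosen by symbol from what is known of Paneth and secretory fate: Atoh1, Gfi1, Spdef, Sox9, Bhlha15, Creb3l4, Foxa1, Foxa2, Foxa3 and Nr5a2. Earlier results of these data were known when the set was chosen. All 10 had counts enough to be tested, among 10707 genes that had. Bulk RNA-seq was done on PCs sorted by flow cytometry from the small intestine, with 1 library from each of 8 mice. The 4 mice of the water group drank Milli-Q water, and the 4 mice of the zinc group drank water with 25 mM zinc sulfate (ZnSO4), in both cases for 7 days. Per the labels every mouse of either group was then injected with tumor necrosis factor (TNF), and PCs were collected after 3 hours; no library is labelled as being without TNF, but the TNF response genes of zinc replicate 3 went against its label, as given below. Per the study's methods the mice were C57BL/6J; their age was not given in the sources used here, and no transgene is named for these groups. The question was how high each factor stood in PCs, whether it moved with the antimicrobial products of these cells from mouse to mouse, and whether it differed between zinc and water.

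Secretory cells of the intestine arise where Notch signalling is low. There the basic helix-loop-helix factor Atoh1 is released from repression and starts the secretory program, Gfi1 acts below it against the enteroendocrine fate, Spdef promotes the maturation of goblet and Paneth cells, and Sox9, a target of Wnt signalling, is needed for PCs to form. Bhlha15 (also called Mist1) and Creb3l4 belong to the machinery of cells that secrete heavily, the forkhead factors Foxa1, Foxa2 and Foxa3 open chromatin in gut epithelium, and the nuclear receptor Nr5a2 supports crypt renewal.

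The 250 bases before the annotated start were read from the GRCm39 genome for 5 factors: Atoh1 and Gfi1, whose log2 fold changes between the groups were larger than those of the other 8; Spdef, the most abundant; Foxa1, which holds a forkhead motif; and Foxa2, which stood furthest from the other libraries in zinc replicate 3. Each is given 5′ to 3′ on the strand of its gene, and capitals mark motif matches. No annotated exon lies in these 5 windows; those of Gfi1 and Foxa1 lie within the span of a longer transcript of the same gene.
Atoh1, chr6:64705859-64706108, plus strand: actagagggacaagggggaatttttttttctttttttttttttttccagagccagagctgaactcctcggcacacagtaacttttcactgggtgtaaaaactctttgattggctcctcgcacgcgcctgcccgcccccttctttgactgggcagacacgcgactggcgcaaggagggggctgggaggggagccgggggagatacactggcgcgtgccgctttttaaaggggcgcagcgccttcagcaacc
Gfi1, chr5:107872210-107872459, minus strand: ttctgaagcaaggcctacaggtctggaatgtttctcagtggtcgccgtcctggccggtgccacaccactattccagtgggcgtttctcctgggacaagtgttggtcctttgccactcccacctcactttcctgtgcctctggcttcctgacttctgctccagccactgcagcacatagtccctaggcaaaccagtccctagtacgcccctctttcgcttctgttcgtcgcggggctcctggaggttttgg
Spdef, chr17:27947930-27948179, minus strand: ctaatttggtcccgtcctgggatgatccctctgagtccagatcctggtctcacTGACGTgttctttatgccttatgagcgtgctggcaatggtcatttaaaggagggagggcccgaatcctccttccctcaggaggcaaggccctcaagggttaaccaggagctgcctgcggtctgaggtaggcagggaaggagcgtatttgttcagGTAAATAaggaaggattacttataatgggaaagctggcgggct
Foxa1, chr12:57592945-57593194, minus strand: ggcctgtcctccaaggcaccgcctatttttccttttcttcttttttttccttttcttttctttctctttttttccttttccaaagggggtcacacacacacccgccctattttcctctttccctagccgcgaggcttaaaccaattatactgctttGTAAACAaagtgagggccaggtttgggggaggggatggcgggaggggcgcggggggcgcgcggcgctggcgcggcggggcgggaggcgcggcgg
Foxa2, chr2:147889006-147889255, minus strand: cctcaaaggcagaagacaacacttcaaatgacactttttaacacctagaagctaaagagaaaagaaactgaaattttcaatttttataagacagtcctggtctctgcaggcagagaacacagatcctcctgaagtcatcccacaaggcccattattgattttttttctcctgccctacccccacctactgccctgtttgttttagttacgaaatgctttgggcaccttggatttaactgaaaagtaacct

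Both strands of all 10 windows were searched for the E-box CAGCTG, the forkhead motifs TGTTTAC and TATTTAC, the XBP1 motifs ACGTGTC and ACGTGGC and the CREB core TGACGT. Matches were found at Spdef and Foxa1 alone. Spdef held TGACGT 197 to 192 bases before its start and, on the opposite strand, TATTTAC (printed as GTAAATA) 43 to 37 bases before it. Foxa1 held TGTTTAC on the opposite strand (printed as GTAAACA) 94 to 88 bases before its start. Among 21770 protein-coding promoters of the same length, 11.9% held the E-box, 5.37% a forkhead motif, 3.28% an XBP1 motif and 6.49% the CREB core. These matches describe the letters of the windows and say nothing on binding in PCs.

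The libraries held 10623658 to 15101627 counts, and the limit that a count of 0 allows, 3 counts, was worth 0.179 to 0.369 CPM (counts on a common, TMM-scaled library size). Paneth products made up most of the counts: alpha-defensin (Defa) genes took 34.0 to 44.8% of each library and 13 other Paneth products 23.9 to 26.2%, against 0.0573 to 0.0934% for the 10 factors together. Of 11 immune and stromal markers 0 passed the expression filter, 5 had 0 counts in all libraries, and their summed level was at most 1.43 CPM. Of 8 goblet markers 8 passed, with sums of 9835 to 13922 CPM in the water group and 9811 to 14549 CPM under zinc. Their part in the levels of the factors was not tested. Zinc replicate 3 stood apart. In that library 14 of 14 genes of a TNF response list were at their lowest, with a sum of 133 CPM against 1519 to 1895 CPM elsewhere and 0 counts of Cxcl1, Cxcl2, Cxcl10 and Icam1, although its label gives TNF as in the other 7. The 10 enterocyte markers were all highest there (565 CPM summed against 89.6 to 180 CPM). Results are therefore given with and without zinc replicate 3. In water replicates 3 and 4 levels fell with transcript length (Spearman rho of deviation on length -0.23 and -0.24, against 0.018 to 0.180 elsewhere).

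Levels of different genes were compared as TPM, computed here from the counts over exonic length and the library total. Spdef was the most abundant factor at 63.4 ± 16.8 TPM (mean ± SD over 8 libraries), followed by Sox9 at 44.3 ± 14.6, Foxa3 at 40.1 ± 5.98, Bhlha15 at 37.2 ± 16.6, Creb3l4 at 28.6 ± 6.32, Atoh1 at 26.7 ± 17.3 and Foxa1 at 17.8 ± 5.26 TPM. These 7 factors lay above 93.4% to 98.4% of all tested genes. Foxa2 at 2.06 ± 2.07 TPM and Gfi1 at 1.89 ± 2.00 TPM stood near the middle of the tested genes, above 53.8% and 51.7% of them. Nr5a2 was the lowest at 0.149 ± 0.0639 TPM, above 3.69% of tested genes, and rested on 143 counts in all.

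**Figure D1:**
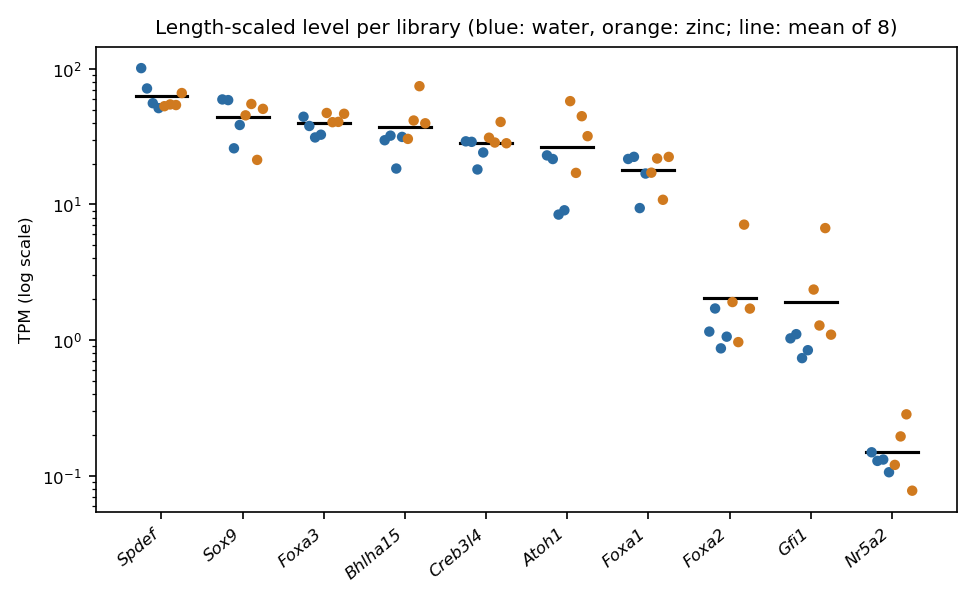
Level of each factor in TPM on a log axis, 1 point for each of the 8 libraries (blue for water, orange for zinc) and a line at the mean of 8. The order runs from Spdef at 63.4 TPM to Nr5a2 at 0.149 TPM, with a gap between Foxa1 at 17.8 TPM and Foxa2 at 2.06 TPM.

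Neighbours in this order were compared within libraries by a two-sided exact sign-flip permutation test, adjusted over the 9 neighbouring pairs. Spdef lay above Sox9 in 7 of 8 libraries (exact p = 0.0156, adjusted p = 0.0469), with a mean log2 ratio of 0.56. Foxa1 lay above Foxa2 and Gfi1 above Nr5a2 in 8 of 8 libraries (exact p = 0.0078, the smallest the test can give, adjusted p = 0.0352), by mean log2 ratios of 3.41 and 3.31. Bhlha15 and Creb3l4 had an unadjusted exact p of 0.0312 and an adjusted p of 0.0703. For the other 5 pairs (Sox9 and Foxa3, Foxa3 and Bhlha15, Creb3l4 and Atoh1, Atoh1 and Foxa1, Foxa2 and Gfi1) the adjusted exact p ran from 0.363 to 0.680, so the order among them was not told apart from the spread between libraries.

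Zinc was then compared with water by the quasi-likelihood test of edgeR over all 10707 genes. Of the 10 factors, 0 passed an adjusted p of 0.05, as did 0 of all genes. The background at an unadjusted p under 0.05 was 10.2% of all tested genes, 6.42% higher and 3.78% lower with zinc. At that level 3 of the 10 factors stood out: Atoh1 and Gfi1 had higher values with zinc and Spdef lower values. DESeq2 gave 5 such factors, adding Bhlha15 and Foxa2, with a background of 6.87%. That background is over 18720 genes without the edgeR filter, so it is not on the same set as the 10.2%. Limma-voom with sample weights gave 1 (Spdef, background 12.4% of the 10707). At an adjusted p of 0.05 DESeq2 called 0 of the 10 factors as well, where it called 0.0214% of its 18720 genes. Without zinc replicate 3 there were 2, Atoh1 and Spdef (background 8.06%). Without water replicates 3 and 4 there were 0 (background 312 of 11213 genes). By sign alone 7 factors were higher with zinc and 3 lower, where 50.8% of all genes were higher. The median log2 fold change of the 10 was 0.19, and 0.10 without zinc replicate 3, beside 0.0062 over all genes. For 0 of 10 factors did the water and zinc libraries not overlap, where 5.87% of all genes had groups apart.

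**Figure D2:**
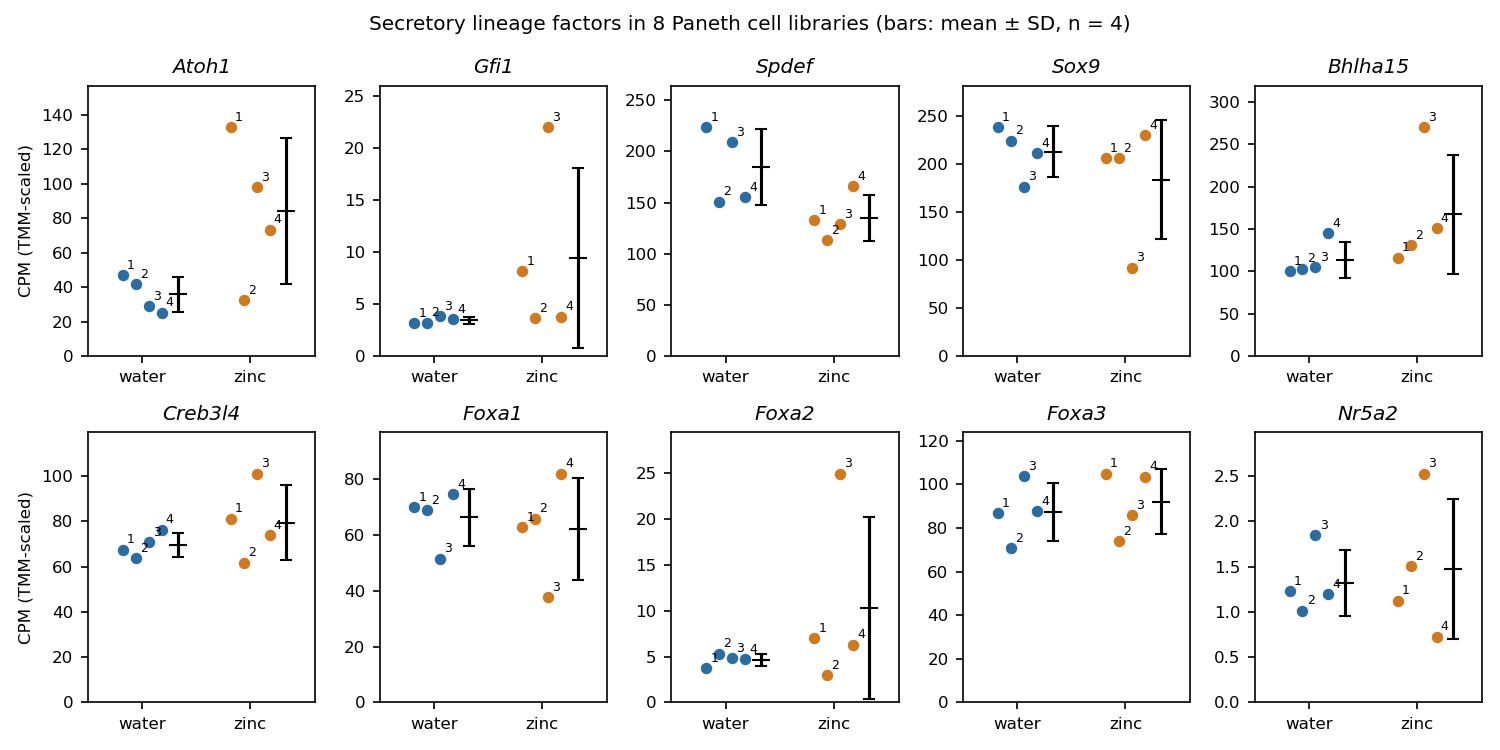
CPM of the 10 factors in each library, on linear axes from 0, with points numbered by replicate and bars giving mean ± SD of 4 libraries. Atoh1 was at 25.2 to 46.8 CPM in the water group and 32.5 to 133 CPM under zinc, and zinc replicate 3 was the highest point for Gfi1, Bhlha15, Creb3l4, Foxa2 and Nr5a2.

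Among the factors that start the secretory program, Atoh1 (ENSMUSG00000073043, chromosome 6, 64706109 to 64708229, plus strand) was at 46.8, 41.9, 29.0 and 25.2 CPM in water replicates 1 to 4 and at 133, 32.5, 98.0 and 73.4 CPM in zinc replicates 1 to 4. Zinc replicates 1, 3 and 4 lay above every water library, and zinc replicate 2 lay within the water range. The means were 35.7 ± 10.3 and 84.2 ± 42.3 CPM (SD, n = 4 each), for a log2 fold change of 1.23 (standard error, SE, 0.371, edgeR unadjusted p 0.00724, adjusted p 0.485). It was 1.15 without zinc replicate 3 and at least 0.92 with any 1 library left out. Limma-voom with sample weights gave 0.63 (unadjusted p 0.140). Without both water replicates 3 and 4 the edgeR log2 fold change was 0.91 (unadjusted p 0.103). Of a list of 8 crypt stem cell markers, 7 of 7 tested were higher with zinc by sign, with a median log2 fold change of 1.01 (0.78 without zinc replicate 3). By edgeR 0 of them passed an adjusted p of 0.05, as did 0 of all genes. Their sums overlapped, at 438 to 626 CPM in the water group and 518 to 1163 CPM under zinc. The summed stem markers were highest in zinc replicate 3 (1163 CPM) and next in zinc replicate 1 (1127 CPM), the 2 libraries where Atoh1 was highest. Zinc replicate 4 was the lowest zinc library for the stem markers but not for Atoh1. The part of the stem markers in the Atoh1 values was not tested. Of 8 goblet markers, 5 were higher and 3 lower with zinc, with a median log2 fold change of 0.69 (0.36 without zinc replicate 3) and sums of 9835 to 13922 CPM in the water group and 9811 to 14549 CPM under zinc; their part was not tested either. In a bulk sample a change in the share of a cell type and a change of RNA per cell cannot be told apart.

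Gfi1 (ENSMUSG00000029275, chromosome 5, 107864523 to 107873902, minus strand), a zinc finger repressor, was at 3.15, 3.22, 3.82 and 3.52 CPM in the water group and 8.15, 3.66, 22.03 and 3.79 CPM under zinc. The 4 water libraries lay close together, zinc replicates 2 and 4 were within their range, and the group difference came from zinc replicates 1 and 3. The log2 fold change was 1.47 (SE 0.528, edgeR unadjusted p 0.0187, adjusted p 0.485), and 0.60 without zinc replicate 3 (unadjusted p 0.0672). Gfi1 is also used by leukocytes, so 8 leukocyte genes were looked up: 0 passed the filter, and their sum was at most 0.417 CPM in any library and 0.140 CPM in zinc replicate 3. Its span overlaps Gm71307 on the same strand, whose reads could not be separated.

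Spdef (ENSMUSG00000024215, chromosome 17, 27933326 to 27947929, minus strand), an Ets factor of goblet and Paneth maturation, was at 224, 151, 209 and 155 CPM in the water group and 133, 113, 129 and 166 CPM under zinc. Zinc replicates 1, 2 and 3 lay below every water library, while zinc replicate 4 lay between the water values. The means were 184.7 ± 37.2 and 135.0 ± 22.2 CPM, or -0.45 as log2 fold change (SE 0.187, edgeR unadjusted p 0.0356, adjusted p 0.485). It was -0.42 without zinc replicate 3 and ran from -0.57 to -0.35 over single omissions. The unadjusted edgeR p of Spdef rose above 0.05 with the length correction (0.0558) and without water replicate 1 (0.113), water replicate 3 (0.085), zinc replicate 1 (0.0729) or zinc replicate 2 (0.105). It did so too with the replicate block (0.0526) and without both water replicates 3 and 4 (0.0756).

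Sox9 (ENSMUSG00000000567, chromosome 11, 112673009 to 112678586, plus strand) was at 238, 224, 176 and 211 CPM in the water group and 206, 206, 91.9 and 230 CPM under zinc. Zinc replicate 3 was the lowest library, 1.92-fold below the next, and the other 3 zinc libraries lay within the water range. The log2 fold change was -0.21 (SE 0.258, edgeR adjusted p 0.738) and turned to 0.014 without zinc replicate 3.

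Of the factors of the secretory apparatus, Bhlha15 (ENSMUSG00000052271, chromosome 5, 144127086 to 144131259, plus strand) was at 100.2, 103, 105 and 145 CPM in the water group and 116, 131, 270.2 and 151 CPM under zinc. Zinc replicate 3 was 1.79-fold above the next library, zinc replicate 4. The log2 fold change was 0.56 (SE 0.264, edgeR unadjusted p 0.0589, adjusted p 0.487), and 0.23 without zinc replicate 3. Tecpr1 overlaps Bhlha15 on the opposite strand, and it too was highest in zinc replicate 3 (45.5 CPM against 15.5 to 22.8 CPM); the sources used here do not say whether the counting used strand.

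Creb3l4 (ENSMUSG00000027938, chromosome 3, 90144103 to 90150845, minus strand), a membrane-bound factor of the endoplasmic reticulum, was at 67.5, 63.7, 71.0 and 76.4 CPM in the water group and 81.2, 61.8, 101 and 73.9 CPM under zinc. The groups overlapped, with a zinc library at either end of the range. The log2 fold change was 0.19 (SE 0.166, edgeR adjusted p 0.630) and 0.059 without zinc replicate 3. Its opposite-strand neighbour Jtb did not share this order, with zinc replicate 3 at 49.1 CPM inside a range of 38.2 to 68.1 CPM.

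The 3 forkhead factors did not follow one another. Foxa1 (ENSMUSG00000035451, chromosome 12, 57587414 to 57593702, minus strand) was at 69.8, 68.9, 51.4 and 74.5 CPM in the water group and 62.6, 65.8, 37.6 and 81.9 CPM under zinc, or -0.10 as log2 fold change (SE 0.224, edgeR adjusted p 0.870) that turned to 0.085 without zinc replicate 3. Zinc libraries were both the lowest (replicate 3) and the highest (replicate 4) for Foxa1.

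Foxa2 (ENSMUSG00000037025, chromosome 2, 147884797 to 147889005, minus strand) was at 3.76, 5.30, 4.80 and 4.72 CPM in the water group and 7.03, 2.94, 24.9 and 6.29 CPM under zinc. Zinc replicate 3 was 3.54-fold above the next library, the widest such gap of the 10 factors. The log2 fold change was 1.15 (SE 0.539, edgeR unadjusted p 0.0571, adjusted p 0.485), fell to 0.21 without that library and was -0.014 by limma-voom with sample weights. Foxa3 (ENSMUSG00000040891, chromosome 7, 18747209 to 18757471, minus strand) was at 86.9, 70.8, 104 and 87.6 CPM in the water group and 105, 74.1, 85.8 and 103 CPM under zinc, or 0.078 as log2 fold change (SE 0.169, edgeR adjusted p 0.859). It had the narrowest range of the 10 over the 8 libraries, 1.48-fold from lowest to highest.

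Nr5a2 (ENSMUSG00000026398, chromosome 1, 136770303 to 136888186, minus strand) had 9 to 36 counts per library. It was at 1.23, 1.01, 1.85 and 1.20 CPM in the water group and 1.12, 1.51, 2.53 and 0.726 CPM under zinc, with zinc libraries at both ends. The log2 fold change was 0.19 (SE 0.426, edgeR adjusted p 0.865), and -0.19 without zinc replicate 3.

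**Figure D3:**
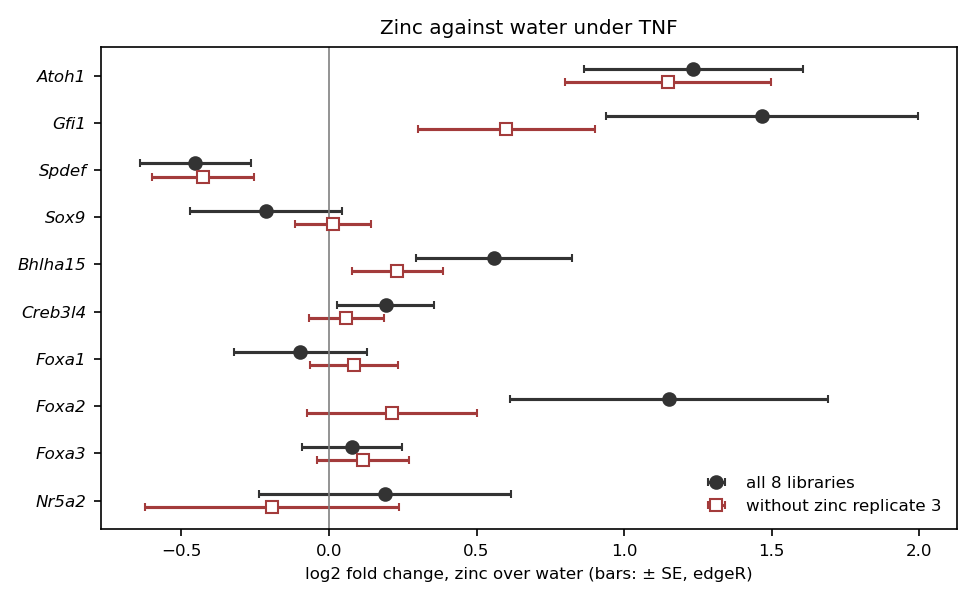
Log2 fold change of zinc over water from edgeR for each factor, with bars of ± 1 SE, for all 8 libraries (filled circles) and without zinc replicate 3 (open squares). Atoh1 (1.23 and 1.15) and Spdef (-0.45 and -0.42) kept their size, whereas Gfi1 went from 1.47 to 0.60 and Foxa2 from 1.15 to 0.21.

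Zinc replicate 3 was the highest library for 5 factors, as for 29.8% of all tested genes, and the lowest for 2, as for 30% of all. Thus 7 of 10 were at an extreme there, beside 59.8% of all tested genes. It was over 1.5-fold above every other library for 3 factors (Gfi1, Bhlha15 and Foxa2), where 9.12% of all genes were, and over 1.5-fold below for 1 (Sox9), where 11.3% were. The low TNF response and high enterocyte markers of this library stand beside these values. As a mean of log2 CPM, 3 other marker lists were highest there too: goblet markers at 7.71 (6.37 to 7.16 in the other libraries), stem cell markers at 6.63 (4.67 to 6.15) and enteroendocrine and tuft markers at 2.66 (0.63 to 1.95). The goblet marker Fcgbp, for example, was at 1270.0 CPM there and at most 318.3 CPM elsewhere, whereas the summed goblet level, mostly Muc2 and Spink4, was lowest there among the 8 at 9811 CPM. The part of these lists in the values of the factors was not tested.

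Co-variation with Paneth products was measured over libraries as the correlation of log2 CPM, for 8 measures: the summed Defa genes, the mean of 11 tested products, and Lyz1 (lysozyme), Itln1 (intelectin), Mmp7 (the protease that activates defensins), Ang4 (an antimicrobial angiogenin), Mptx2 (a pentraxin) and Pnliprp2 (a lipase) singly. Of the 80 relations, 0 passed an adjusted p of 0.05 by exact permutation (smallest 0.0853), and 6 had an unadjusted p under 0.05. Of these 6, 4 were with Pnliprp2. All measures of a library share its depth and scaling.

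**Figure D4:**
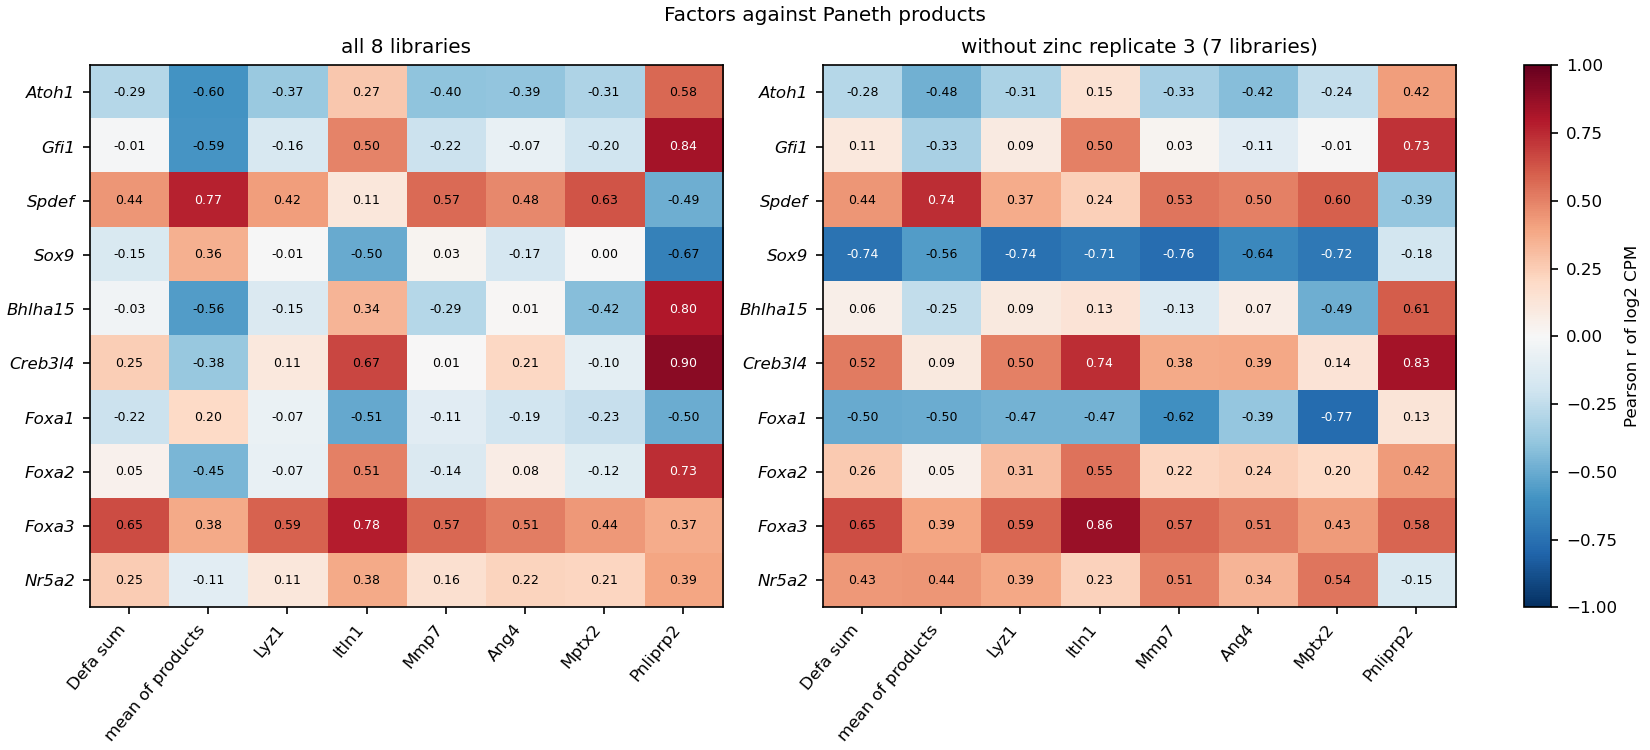
Pearson r between log2 CPM of each factor (rows) and each Paneth product measure (columns), over all 8 libraries at left and over the 7 without zinc replicate 3 at right, from -1 (blue) to 1 (red). Foxa3 was positive in every column of both panels, and Sox9 was negative in every column of the right panel alone.

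Creb3l4 and Pnliprp2 gave the closest relation. Pnliprp2 was at 2544, 2339, 2684 and 3296 CPM in the water group and 3533, 2809.9, 4004 and 2999 CPM under zinc, and 7 of the libraries kept the same order for both genes, with zinc replicate 2 off the line. Pearson's r was 0.90 (exact permutation p = 0.00166, adjusted 0.0853) and Spearman's rho 0.86 (exact p = 0.0107, adjusted 0.348). Pearson's r was 0.78 without the 2 libraries farthest from the median of Pnliprp2 and 0.83 without zinc replicate 3 (exact p = 0.0244, adjusted 0.592). On values centred on their group means r was 0.90 (permutation p = 0.000124, adjusted 0.00992). The centred values were permuted across the 2 groups, so that p is not exact and may be too small.

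Gfi1 and Pnliprp2 had an r of 0.84 (exact p = 0.00213, adjusted 0.0853) and a rho of 0.76 (exact p = 0.0368, adjusted 0.420), with 0.73 without the 2 farthest libraries and 0.73 without zinc replicate 3 (exact p = 0.0270, adjusted 0.592). Bhlha15 with Pnliprp2 had an r of 0.80 (exact p = 0.0115, adjusted 0.308) and a rho of 0.81 (exact p = 0.0218, adjusted 0.348), and r fell to 0.50 without the 2 farthest and to 0.61 without zinc replicate 3. Foxa2 with Pnliprp2 had an r of 0.73 (exact p = 0.0285, adjusted 0.381) and a rho of 0.57 (exact p = 0.151, adjusted 0.711), and r was 0.66 and 0.42 under the same omissions. The r of all 3 relations thus fell without zinc replicate 3. For Gfi1 the rho was then 0.64 (exact permutation p = 0.139).

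**Figure D5:**
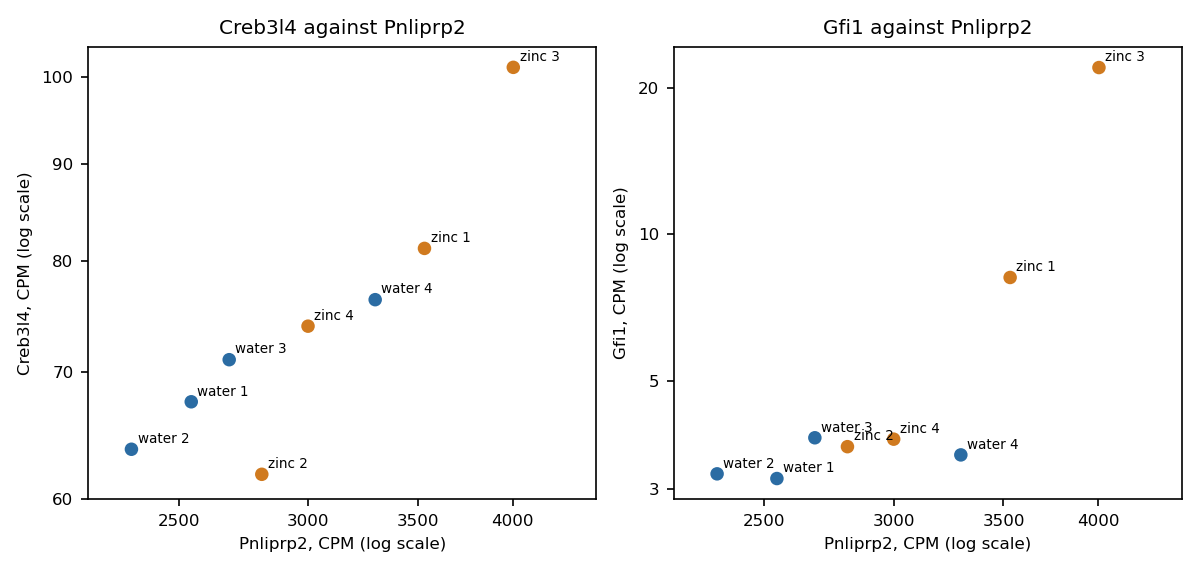
Creb3l4 (left) and Gfi1 (right) against Pnliprp2 in CPM on log axes, 1 point per library (blue for water, orange for zinc). Creb3l4 rises with Pnliprp2 except in zinc replicate 2, whereas for Gfi1 6 libraries lie between 3.15 and 3.82 CPM and zinc replicates 1 and 3 lie above.

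Spdef and the mean of the 11 products had an r of 0.77 (exact p = 0.0208, adjusted 0.381) and a rho of 0.86 (exact p = 0.0107, adjusted 0.348). Its r was 0.75 without the 2 farthest libraries and 0.74 without zinc replicate 3 (exact p = 0.0401, adjusted 0.592). On group-centred values it was 0.56 (permutation p = 0.158, not exact, as given above). The 11 products include Reg3g (662 to 7697 CPM over the libraries) and Reg3b (154 to 1998 CPM). With single products, the r of Spdef was 0.42 for Lyz1, 0.57 for Mmp7, 0.48 for Ang4 and 0.63 for Mptx2. It was 0.11 for Itln1 and -0.49 for Pnliprp2. Foxa3 and Itln1 had an r of 0.78 (exact p = 0.0261, adjusted 0.381) and a rho of 0.69 (exact p = 0.0694, adjusted 0.463), with 0.50 without the 2 farthest libraries and 0.86 without zinc replicate 3 (exact p = 0.0127, adjusted 0.592). With the Defa sum, Foxa3 had an r of 0.65 (exact p = 0.0755, adjusted 0.670) and a rho of 0.83, Spdef an r of 0.44 and Atoh1 an r of -0.29 (exact p = 0.272 and 0.507, adjusted 0.760 and 0.893). Sox9, the factor that PCs need to form, had an r of -0.15 with the Defa sum (exact p = 0.691), and of -0.74 without zinc replicate 3 (exact p = 0.0627, adjusted 0.592). Its rho was then -0.46 (exact p = 0.302), and with a correction for transcript length over all 8 libraries r was 0.21 (exact p = 0.669).

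Among themselves the factors gave 45 pairs, of which 6 passed an adjusted exact p of 0.05 over all 8 libraries and 0 without zinc replicate 3 (smallest adjusted p 0.423). None of the 6 calls thus held without that library, though r kept its sign in all 6. Sox9 and Foxa1 were the pair with the highest r, 0.93 (exact p = 0.00275, adjusted 0.0344; rho 0.88, exact p = 0.00724), and 0.84 without zinc replicate 3 (exact p = 0.0264, adjusted 0.423). The other 5 were Gfi1 with Foxa2 (0.92, then 0.59 without it), Creb3l4 with Foxa2 (0.92, then 0.75), Gfi1 with Creb3l4 (0.91, then 0.68), Foxa1 with Nr5a2 (-0.92, then -0.84) and Sox9 with Nr5a2 (-0.84, then -0.75), with adjusted exact p of 0.0344 to 0.0485 over 8 libraries. Their rho was 0.71 (exact p = 0.0576), 0.76 (exact p = 0.0368), 0.69 (exact p = 0.0694), -0.74 (exact p = 0.0458) and -0.67 (exact p = 0.0831) in that order. Without the 2 libraries farthest from the median of the first-named factor, r was 0.53 for Sox9 with Foxa1. For the other 5, in the same order, it was 0.17, 0.57, 0.37, -0.69 and -0.48. Nr5a2 had only 9 to 36 counts per library.

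Genes whose pattern over the 8 libraries was most like each factor were looked up among 10697 other tested genes, as a description. Lamp1 (a lysosomal membrane protein; r = 0.97, and 0.97 without zinc replicate 3), Sema3b (0.95 and 0.98) and Mctp1 (0.94 and 0.93) were closest to Atoh1. For Gfi1 they were Degs2 (0.99 and 0.97), Pgap4 (0.99 and 0.95) and Egf (0.99 and 0.94). Spdef was matched by Dnajc14 (0.97 and 0.96), Xpnpep3 (0.94 and 0.94) and Kpna1 (0.92 and 0.91). Foxa3, for which zinc replicate 3 was at neither extreme, was matched by Spa17 (0.94 and 0.95), Tspan13 (0.94 and 0.95) and Tmprss2, a membrane protease (0.92 and 0.94).

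For the other 6 factors, as for Gfi1 above, zinc replicate 3 was the highest or the lowest library. Bhlha15 was closest to Tmem106b (0.97, and 0.89 without zinc replicate 3), Pja2 (0.97 and 0.86) and Smyd4 (0.97 and 0.90). Creb3l4 was closest to Bri3 (0.98 and 0.96), Edem2, which takes part in the clearance of misfolded proteins from the endoplasmic reticulum (0.97 and 0.93), and Cox7a2l (0.97 and 0.91). Sox9 had Nub1, Grk2 and Tnks1bp1 (1.00, 1.00 and 0.99, then 0.97, 0.96 and 0.93). Foxa1 had Eif2ak3, the kinase PERK of the unfolded protein response (0.98 and 0.94), Capns1 (0.98 and 0.97) and Pabpc4 (0.98 and 0.94). Foxa2 had Dnajc22 (1.00 and 0.98) and Kiz (0.97 and 0.90), and Nr5a2 had Pts (0.98 and 0.95), Senp8 (0.97 and 0.94) and Krba1 (0.97 and 0.94).

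The pathways around the factors were read from 6 lists with 90 genes, 66 of them tested. By edgeR 0 of the 66 passed and 17 (25.8%) had an unadjusted p under 0.05, 16 higher and 1 lower with zinc, beside the background of 10.2%. Without zinc replicate 3 there were 10 (15.2%), beside 8.06%. The lists were chosen with earlier results of these data known, so these shares are a description and not an independent test.

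The Notch signalling list had 17 of 21 genes tested and 0 called, with 14 higher and 3 lower. Its median log2 fold change was 0.42 (0.32 without zinc replicate 3). Among its abundant genes, the gamma-secretase subunit Ncstn had a log2 fold change of -0.037 (SE 0.161) and the protease Adam10 of -0.091 (SE 0.188), which turned to 0.072 and 0.059 without zinc replicate 3. The genes of smallest p were the receptor Notch2, at 1.57 ± 0.625 CPM in the water group and 3.66 ± 1.31 CPM under zinc (1.20, SE 0.385, and 1.32 without zinc replicate 3), and Hes6, at 3.17 ± 0.807 and 9.95 ± 9.45 CPM (1.64, SE 0.550, and 0.72 without it), each with an edgeR adjusted p of 0.485.

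The Wnt list, with receptors, mediators and targets of the pathway that also acts on Sox9, had 15 of 17 genes tested, 0 called, 11 higher and 4 lower, with a median of 0.43 that fell to 0.18 without zinc replicate 3. Ctnnb1, which encodes beta-catenin, was at 316.7 ± 11.5 CPM in the water group and 315.9 ± 12.1 CPM under zinc. Ephb3, a receptor that positions PCs in the crypt, had a log2 fold change of 0.29 (SE 0.182), and Lgr4 of 0.87 (SE 0.352), which was 0.30 without zinc replicate 3. The Wnt targets Axin2 and Lgr5, which are also among the stem cell markers, had the smallest p: Axin2 was at 4.40 to 7.25 CPM in the water group and 22.9, 13.8, 47.9 and 5.08 CPM under zinc (1.94, SE 0.543, and 1.24 without zinc replicate 3), and Lgr5 had 1.44 (SE 0.465, then 0.78), both with an edgeR adjusted p of 0.485.

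Other epithelial transcription factors had 19 of 20 tested, 0 called, 8 higher and 11 lower, with a median of -0.074 that turned to 0.054 without zinc replicate 3. Elf3 (-0.30, SE 0.343, and -0.013 without zinc replicate 3), Xbp1, the unfolded protein response factor that PCs depend on (-0.39, SE 0.210), and Cdx1 (0.21, SE 0.143) were the most abundant. Xbp1 was at 615.0 ± 30.2 CPM in the water group and 470.6 ± 125.6 CPM under zinc, with zinc replicate 3 lowest at 286.6 CPM, and without it the log2 fold change was -0.20. Hnf4a (0.67, SE 0.270, and 0.37 without zinc replicate 3) and Cdx2 (0.24, SE 0.125) had the smallest p, with edgeR adjusted p of 0.485 and 0.502.

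Of 14 endocrine and tuft cell factors, which oppose the Paneth fate, 3 passed the filter, 0 of them called, and 3 had 0 counts in every library. Prox1 had a log2 fold change of 0.0030 (SE 0.207), Sox4 of 1.48 (SE 0.544, and 0.94 without zinc replicate 3) and Nkx2-2 of 1.01 (SE 0.855, and -0.56 without it).

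Secretory targets had 11 of 12 genes tested, 0 called, 7 higher and 4 lower, with a median of 0.16 (0.090 without zinc replicate 3). The goblet trefoil factor Tff3 had a log2 fold change of -0.13 (SE 0.363, and -0.46 without zinc replicate 3) and the disulfide isomerase Agr2 of -0.20 (SE 0.275, and -0.28 without it). Muc2, the goblet mucin, was at 4625, 4757, 3246 and 1950.4 CPM in the water group and 8009.5, 6081, 2639.7 and 9290.0 CPM under zinc (0.84, SE 0.389, edgeR adjusted p 0.485, and 1.10 without zinc replicate 3). Zinc replicates 1, 2 and 4 lay above every water library for Muc2. Atp2c2, a calcium pump of the secretory pathway, was at 35.9 to 40.9 CPM in the water group and 29.2 to 30.7 CPM under zinc (-0.37, SE 0.113, edgeR adjusted p 0.485), with the groups apart, and Ern2, a stress sensor of mucus-secreting cells, had 0.42 (SE 0.176).

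The Nr5a2 list had 2 of 7 genes tested and 0 called. Ccnd1, a cyclin, was at 10.2 ± 1.35 CPM in the water group and 16.7 ± 6.98 CPM under zinc (0.72, SE 0.315), and the glucocorticoid receptor Nr3c1 had 0.70 (SE 0.247, and 0.41 without zinc replicate 3), both with an edgeR adjusted p of 0.485.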

How the data were processed

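The deposited file, made by the authors, gives unnormalised counts of reads for each Ensembl identifier in each of 8 mice. Per the labels, libraries were stranded and polyadenylated; the submitters' processing notes name FastQC 0.12.0, STAR 2.7.10a, DESeq2 and the mm39 build (GRCm39) without roles. The counting rule, strand setting and annotation release are not given in the sources used here. Groups were taken from the deposited labels. Identifiers were matched to GENCODE M39 symbols: 54749 of 55414 matched, and the other 665 held 0.00443% of the counts. No 2 libraries agreed within sampling noise (smallest chi-square per degree of freedom 6.37), so each counted as 1 replicate; p-values measure the spread between these mice.

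Zinc was compared with water with edgeR 4.0.16 (R 4.3.3; quasi-likelihood test, TMM factors, filterByExpr with a minimum count of 10), adjusted by Benjamini and Hochberg over 10707 genes that held 99.9% of the counts. Log2 CPM values for correlations used a prior count of 2. TPM used the union of annotated exons. Exact permutation tests were two-sided (scipy 1.17.1). Limits for 0 counts cover counting error only. Alternatives were other scaling factors and filters, DESeq2 1.42.0, limma-voom (limma 3.58.1) with sample weights, a replicate block, a length correction and omitted libraries. The steps were tested on simulated data. The factors and gene lists were chosen with earlier results of these data known. Of the lists, the 3 tested genes of highest TPM and the 2 of smallest p were named, and for likeness the 3 genes of highest r; 2 genes under this rule are not reported here. The counts at an unadjusted p, the correlations between factors and the 1.5-fold description of zinc replicate 3 were added after seeing the data. Windows before gene starts were read from GRCm39 at the Ensembl canonical start of GENCODE M39.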

Additional observations from a re-analysis of the deposited data

Results flagged for a closer look

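Among 46 groups of 4 libraries searched for a library far from the other 3, 4 held one, where chance alone gives about 2.3. Of the factors, this was Bhlha15 in water replicate 4, at 145 CPM against 100.2 to 105 CPM in the other water libraries. The summed Defa genes were lower in zinc replicate 2 (18.2 log2 CPM) than in the other zinc libraries (18.5 log2 CPM each). Mptx2 was higher in water replicate 3 (13.9 log2 CPM) than in the other water libraries (12.2 to 12.5). The mean of the TNF response list was 0.995 log2 CPM in zinc replicate 3, against 5.197 to 5.456 in the other zinc libraries.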

How the results depend on the processing

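Over 18 alternatives 0 of the 10 factors passed the threshold (smallest adjusted p 0.181), and 175 of 180 member fold changes kept their direction. The 5 that reversed were Foxa2 with limma-voom (-0.014), Foxa3 without water replicate 2 (-0.014), and Sox9 (0.014), Foxa1 (0.085) and Nr5a2 (-0.19) without zinc replicate 3. With 1 library left out the log2 fold change ran from -0.014 to 0.17 for Foxa3, -0.34 to 0.014 for Sox9, -0.26 to 0.085 for Foxa1 and -0.19 to 0.41 for Nr5a2. DESeq2 called 4 genes over the whole table, where edgeR called 0. The factors at an unadjusted p under 0.05 numbered 3 with edgeR, 5 with DESeq2 or no filter and 1 with limma-voom. They numbered 3 with the length correction (Bhlha15 in place of Spdef) and 0 without water replicates 3 and 4. Over all genes tested the shares were 10.2% with edgeR and 12.4% with limma-voom, each of 10707 genes, and 6.87% of 18720 genes with DESeq2. The counts were 1711 of 18747 genes with no filter and 1060 of 10707 with the length correction. Without water replicates 3 and 4 the count was 312 of 11213. Neighbouring levels that differ were 3, but 0 to 3 with 1 library left out and 0 without water replicates 3 and 4, where fewer libraries raise the smallest p the test can give. Correlations of a factor with a product past the threshold were 0, but 1 on group-centred values (Creb3l4 with Pnliprp2), where the permutation p is not exact. There were 0 to 1 with 1 library left out: Creb3l4 with Itln1 without water replicate 3 (r = 0.90, adjusted exact p = 0.0476) and with Pnliprp2 without zinc replicate 2 (r = 0.95, adjusted exact p = 0.0159). Pairs of factors past the threshold went from 6 to 0 without zinc replicate 3. The cause of these changes was otherwise not tested.

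Replicate numbers did not pair the mice: deviations of same-numbered libraries correlated by -0.027 to 0.027. With the replicate block, 0 genes and 0 factors were called. An unadjusted edgeR p under 0.05 was held by 2 factors (Atoh1, log2 fold change 1.13, and Gfi1, 1.06), beside 802 of 10707 genes. Nr5a2 had the fewest counts of the factors, 9 to 36 per library.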
